A study of Mus musculus with 8 samples.

Results

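The genes described here are 36 genes of the NRF2 pathway and of the antioxidant systems it is known for, among 53700 genes counted by RNA-Seq in Lewis lung carcinoma (LLC) cells, a mouse lung tumor cell line. They were listed by name and role, with earlier results of these data known: the regulators Nfe2l2 and Keap1, classical NRF2 target enzymes, and the genes of glutathione, thioredoxin, peroxiredoxin, superoxide, peroxide and NADPH metabolism. All 36 were found in the count table, and 33 had enough reads to be tested. The 4 groups were WT LLC cells in normoxia (21% O2), WT cells in hypoxia (1% O2), FIH-KO cells in normoxia and FIH-KO cells in hypoxia, each with 2 libraries and each cultured for 16 hours. FIH-KO cells lacked factor-inhibiting HIF, an oxygen-dependent asparagine hydroxylase that restrains the hypoxia-inducible factors (HIF). They were made in LLC cells by CRISPR/Cas9 with a guide against exon 2 of Hif1an, which encodes FIH, followed by single-cell dilution. Whether the sequenced FIH-KO cells were 1 clone, and whether the 2 libraries of a group came from separate cultures, is not given in the sources used here. The p values therefore measure the spread between libraries of the same group, pooled over the 4 groups, which may be technical. Traits of a clone cannot be told apart from loss of FIH.

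NRF2, the protein encoded by Nfe2l2, is the transcription factor of the oxidative stress response. KEAP1 binds it and hands it to a CUL3 ubiquitin ligase for degradation, and oxidants or electrophiles that modify KEAP1 let NRF2 accumulate, pair with a small MAF protein and bind antioxidant response elements near its target genes. Those targets make and recycle glutathione and thioredoxin, the thiol pools that peroxidases draw on to remove hydrogen peroxide and lipid peroxides, and they supply the NADPH that reduces both pools. Lung tumors are known for mutations in this pathway. NRF2 is controlled mostly as a protein, which RNA-Seq does not measure.

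Because NRF2 is known to act through the antioxidant response element, the core of that element was looked up in the members' promoters. Some of the stretches that hold it are shown here. RefSeq promoters (table built on GRCm38.p6, 300 bases from 250 before the start to 50 after it) were found for 31 of the 36 members, all but Hmox1, Gclc, Gsr, Prdx6 and Sod3. The core TGACNNNGC, read on both strands, was present in 9 of these 31 (29.0%), against 14.0% of the 27025 genes in the table. Of the members higher in FIH-KO cells in at least 1 oxygen condition, 14 had a promoter and 4 of these held the core (Nfe2l2, Srxn1, Prdx1 and G6pdx). Of the other tested members, 15 had a promoter and 5 of these held it (Gclm, Txnrd1, Sod1, Pgd and Me1). Stretches of 6 of the 9 genes with the core are given 5′ to 3′ on the strand of the gene. Those of Sod1, Pgd and Me1, from the other tested members, are not shown. The core is in capitals, and a core on the opposite strand appears as its complement.
Nfe2l2: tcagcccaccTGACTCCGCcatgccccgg
Srxn1: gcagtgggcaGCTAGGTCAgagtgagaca
Prdx1: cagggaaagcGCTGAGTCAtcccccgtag
G6pdx: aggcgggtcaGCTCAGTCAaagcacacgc
Gclm: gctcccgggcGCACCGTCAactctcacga
Txnrd1: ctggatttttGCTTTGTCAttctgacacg

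Matched to GRCm39, the Nfe2l2 stretch lies at chr2:75535229-75535257 on the minus strand, outside the annotated gene, and its core begins 240 bases before the RefSeq start. The Srxn1 stretch (chr2:151947462-151947490 on the plus strand) lies in the 5′ untranslated region, the Prdx1 stretch (chr4:116542653-116542681 on the plus strand) in an intron of longer Prdx1 transcripts and the G6pdx stretch (chrX:73472525-73472553 on the minus strand) in the 5′ untranslated region of the GENCODE transcripts. The Gclm stretch (chr3:122039062-122039090 on the plus strand) lies outside the gene, and the Txnrd1 stretch (chr10:82694938-82694966 on the plus strand) in an intron of a longer transcript. The hypoxia response element cores ACGTG and GCGTG, which HIF is known to bind, were in 8 members (25.8%, against 21.8% of all genes) and 18 members (58.1%, against 35.2%). The hypoxia cores differ in their first base, CACGTG counts on both strands, and a GCGTG can overlap an antioxidant core, as in GCGTGGTCA of Sod1. A match is a description of the letters and not evidence of binding.

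The gene counts of a library summed to between 14519731 and 18177016. Hif1an was 84.6 and 82.3 CPM (gene counts scaled to a library of 1000000 and by TMM factors) in WT normoxia and 34.8 and 37.7 in FIH-KO normoxia, 90.2 and 84.0 in WT hypoxia and 45.5 and 51.0 in FIH-KO hypoxia, so its mRNA was lower in every FIH-KO library. Hif1an lies on chromosome 19, where many genes were lower in FIH-KO cells at an adjusted p below 0.05 (edgeR). These were 192 and 206 of 476 tested genes in normoxia and hypoxia, against 1817 and 1932 of all 13933. The part of this in the Hif1an values was not tested. The summed CPM of 8 hypoxia-response genes was 462 to 668 in the normoxia libraries and 2696 to 4535 in the hypoxia libraries. Car9, 1 of the 8, did not follow the sum in FIH-KO cells, with 5 and 4 reads in normoxia and 5 and 2 in hypoxia. In WT cells Car9 had 2 and 2 reads in normoxia and 49 and 27 in hypoxia. The others were higher in the hypoxia libraries than in the normoxia libraries of the same genotype. The keratin genes Krt8 and Krt18 were detected in every library, whereas Epcam had 0 counts and Cdh1 at most 1. Markers of T cells had 0 counts, those of macrophages summed to between 2.70 and 9.12 CPM, endothelial ones to between 0.238 and 2.41 CPM, and fibroblast ones to between 8.87 and 30.8 CPM, and their part in the results was not tested. Replicate 1 was the higher of the pair for 29 of the 33 tested members in FIH-KO hypoxia, 23 in FIH-KO normoxia, 24 in WT hypoxia and 14 in WT normoxia. The median ratio of replicate 1 to replicate 2 over the members was 1.23 in FIH-KO hypoxia, with the widest gap at 2.62 for Hmox1, and it lay between 0.983 and 1.08 in the other 3 groups.

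The loss of FIH was read by comparing FIH-KO with WT cells at each oxygen level. Log2 fold changes below are FIH-KO over WT, or hypoxia over normoxia, on the scale of edgeR's fitted group means, with their standard errors (every value given with ± that is not named a level), and a member was called at an adjusted p below 0.05 over all 13933 genes tested. In normoxia 10 of the 33 tested members were higher in FIH-KO cells (30.3% of them, against 15.2% of all genes tested) and 5 were lower (15.2%, against 13% of all genes). In hypoxia 13 were higher (39.4%, against 14.1%) and 2 were lower (6.06%, against 13.9%). The median log2 fold change of the members was 0.26 in normoxia and 0.24 in hypoxia, and that of all genes -0.0025 and -0.03. A set of 8 members (24.2% of those tested, against 9.97% of all genes) was higher in FIH-KO cells at both oxygen levels: Nfe2l2, Nqo1, Srxn1, Gss, Glrx, Gpx4, Cat and Taldo1. Of these 8, 4 lie on chromosome 2 (Nfe2l2, Srxn1, Gss and Cat), and no other member does. On chromosome 2, 319 and 320 of 1113 tested genes were higher in normoxia and hypoxia, against 2116 and 1964 of all 13933. Chromosome medians of the log2 fold change ran from -0.38 (chromosome 19) to 0.23 (chromosome 2) in normoxia. In hypoxia they ran from -0.45 to 0.21 on the same chromosomes. The part of this in the members' values was not tested. Prdx3 and Gpx1 were lower at both oxygen levels (6.06%, against 8.68%). The 2 genotype comparisons used different libraries. The counts that follow, each without 1 library, are of members only. The share of all genes called in those fits is not given. The 10 higher members in normoxia became 4 without FIH-KO normoxia replicate 1, and 5 and 6 without WT normoxia replicates 1 and 2, and the 5 lower members became 1 without any of these 3. The 13 higher members in hypoxia became 5 without WT hypoxia replicate 2, and the 2 lower members became 5 without FIH-KO hypoxia replicate 1 and 0 or 1 without any other library.

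The effect of oxygen was read within each genotype. In WT cells 5 members rose in hypoxia (15.2%, against 16.9% of all genes) and 12 fell (36.4%, against 15.5%). In FIH-KO cells 3 rose (9.09%, against 8.84%) and 9 fell (27.3%, against 8%). The share that rose was thus close to the background in both genotypes, and the share that fell was above it. Hmox1, Slc7a11 and Prdx5 rose in both genotypes (9.09% of the tested members, against 7.92% of all genes), and Nqo1, Gss, Txn1, Txnrd2, Prdx2, Prdx3 and Gpx1 fell in both (21.2%, against 6.33%). The median log2 fold change of the members was -0.32 in WT and -0.17 in FIH-KO cells, with medians of -0.0011 and -0.03 over all genes. The 12 members that fell in WT cells became 7 without WT hypoxia replicate 2 and 19 without FIH-KO hypoxia replicate 1. The 9 that fell in FIH-KO cells became 1 without FIH-KO normoxia replicate 1, and 5 without FIH-KO normoxia replicate 2 or without either replicate of WT normoxia. For these counts, too, the share of all genes called is not given. The hypoxia comparisons share their normoxia or hypoxia libraries with the genotype comparisons, so a library that is high or low enters both.

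**Figure D1:**
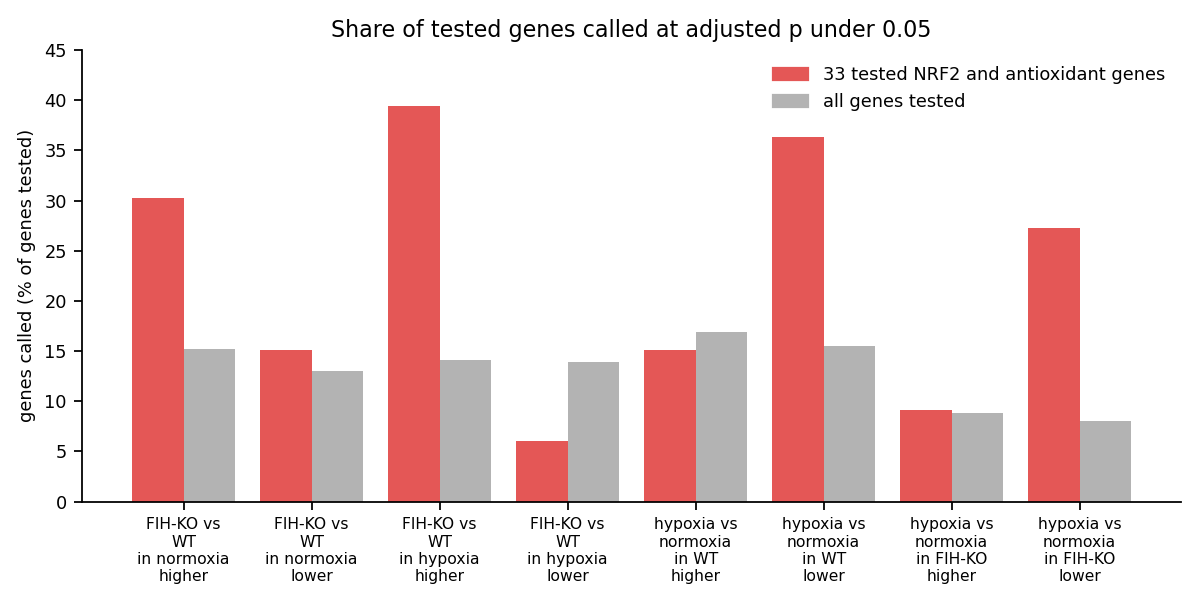
Share of genes called at an adjusted p below 0.05 (y axis, percent of genes tested) for each comparison and direction (x axis), for the 33 tested NRF2 and antioxidant genes (red) and all 13933 genes tested (grey). In percentage points the members exceed the background most for genes higher in FIH-KO cells in hypoxia (39.4% against 14.1%), and as a ratio for genes that fell in hypoxia in FIH-KO cells (27.3% against 8%).

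Among the regulators, Nfe2l2 was higher without FIH at both oxygen levels and did not respond detectably to hypoxia. Nfe2l2 (chr2:75504739-75534985, GRCm39) stood at 243 and 255 CPM in WT normoxia, 252 and 246 in WT hypoxia, 436 and 395 in FIH-KO normoxia, and 458 and 452 in FIH-KO hypoxia. Every FIH-KO library lay above every WT library, and the oxygen groups of WT cells overlapped. The log2 fold change in FIH-KO cells was 0.74 ± 0.11 (adjusted p = 0.00042) in normoxia and 0.87 ± 0.11 (adjusted p = 0.00015) in hypoxia, and the value for hypoxia was 0.00 ± 0.11 (adjusted p = 0.99) in WT and 0.13 ± 0.11 (adjusted p = 0.43) in FIH-KO cells. Both FIH-KO calls held without any 1 library, with log2 fold changes of 0.65 to 0.78 in normoxia and 0.85 to 0.92 in hypoxia. Nfe2l2 lies on chromosome 2, where the median log2 fold change of all 1113 tested genes was 0.23 in normoxia and 0.21 in hypoxia, and the part of that shift in its change was not tested. Since these are bulk libraries, a change in the share of cells with a transcript and a change in transcript per cell cannot be told apart.

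Keap1 (chr9:21141026-21150679), the adaptor that marks NRF2 for degradation, stood at 64.5 and 71.1 CPM in WT normoxia, 58.4 and 49.1 in WT hypoxia, 60.6 and 57.9 in FIH-KO normoxia, and 71.5 and 70.4 in FIH-KO hypoxia. The FIH-KO libraries were below the WT ones in normoxia and above them in hypoxia, with no overlap in either. Only the difference in hypoxia passed the test, at 0.40 ± 0.12 (adjusted p = 0.028), and in normoxia it was -0.19 ± 0.12 (adjusted p = 0.26). The Keap1 call in hypoxia ended without FIH-KO hypoxia replicate 2 or WT hypoxia replicate 2 (0.28 to 0.41, adjusted p up to 0.2), and with only the compared libraries in the fit (0.43, adjusted p = 0.056). The Keap1 value for hypoxia was -0.33 ± 0.12 (adjusted p = 0.052) in WT and 0.26 ± 0.12 (adjusted p = 0.17) in FIH-KO cells.

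**Figure D2:**
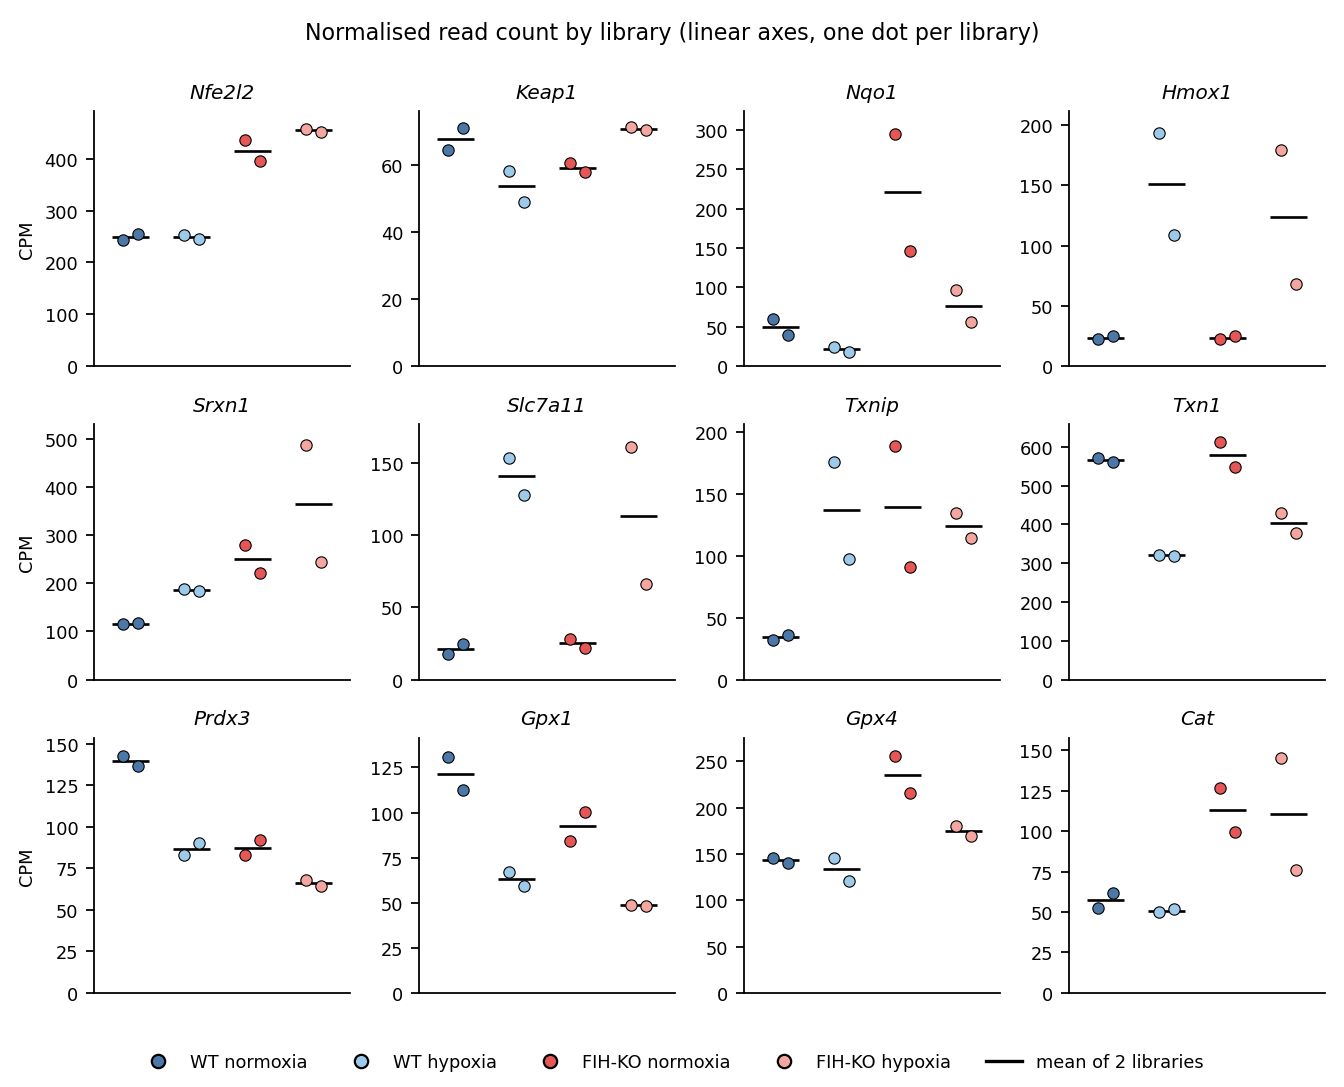
CPM (y axis, linear from 0) of 12 members in the 8 libraries, one dot per library colored by group, with the mean of each pair as a line. Nfe2l2 and Cat are higher in all FIH-KO libraries, Hmox1 and Slc7a11 are higher in all hypoxia libraries, and Txnip is low only in the 2 WT normoxia libraries (32.3 and 36.02 CPM).

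Of the 3 classical NRF2 target enzymes, Nqo1 and Srxn1 were higher in FIH-KO cells and Hmox1 rose in hypoxia without a detectable genotype difference. Nqo1 (chr8:108113835-108129934), a quinone reductase that serves as the usual readout of NRF2 activity, stood at 60.5 and 39.0 CPM in WT normoxia, 24.2 and 18.2 in WT hypoxia, 295 and 146 in FIH-KO normoxia, and 96.4 and 55.8 in FIH-KO hypoxia. FIH-KO libraries were above WT ones at each oxygen level and hypoxia libraries below normoxia ones in each genotype. The log2 fold change in FIH-KO cells was 2.15 ± 0.33 (adjusted p = 0.0006) in normoxia and 1.84 ± 0.34 (adjusted p = 0.0019) in hypoxia, while hypoxia changed Nqo1 by -1.23 ± 0.34 (adjusted p = 0.016) in WT and -1.53 ± 0.32 (adjusted p = 0.0069) in FIH-KO cells. The genotype calls held without any 1 library, but without FIH-KO normoxia replicate 1 the Nqo1 value in normoxia was 1.54 (adjusted p = 0.0065). The Nqo1 call for hypoxia in WT cells ended without WT hypoxia replicate 2 or WT normoxia replicate 1 (-1.04 to -0.92, adjusted p up to 0.12). The Nqo1 call for hypoxia in FIH-KO cells ended without FIH-KO normoxia replicate 1 (-0.93, adjusted p = 0.081).

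Srxn1 (chr2:151947436-151957687), the sulfiredoxin that repairs overoxidized peroxiredoxins, stood at 115 and 117 CPM in WT normoxia, 188 and 183 in WT hypoxia, 279 and 222 in FIH-KO normoxia, and 486 and 243 in FIH-KO hypoxia. It was higher in FIH-KO libraries at each oxygen level, with the libraries of FIH-KO hypoxia far apart. The log2 fold change in FIH-KO cells was 1.11 ± 0.24 (adjusted p = 0.0047) in normoxia and 0.97 ± 0.24 (adjusted p = 0.0093) in hypoxia. Hypoxia raised Srxn1 in WT cells by 0.68 ± 0.24 (adjusted p = 0.045), and the value in FIH-KO cells was 0.54 ± 0.23 (adjusted p = 0.14). That Srxn1 value was -0.016 without FIH-KO hypoxia replicate 1 (adjusted p = 0.96) and 0.95 without replicate 2 of that group (adjusted p = 0.0004), and it passed with no filter beyond 1 read (0.54, adjusted p = 0.00039). The Srxn1 call in normoxia ended without FIH-KO normoxia replicate 1 (0.91, adjusted p = 0.053). The Srxn1 call for FIH-KO in hypoxia ended without either replicate of WT hypoxia (0.96 to 1.03, adjusted p up to 0.066). Its value was 0.43 without FIH-KO hypoxia replicate 1, still called (adjusted p = 0.035). The Srxn1 call for hypoxia in WT cells ended without any 1 library except those of FIH-KO hypoxia (0.62 to 0.69, adjusted p up to 0.19), and with DESeq2 or with TMM factors from genes outside chromosomes 3, 19 and X (0.65 to 0.66, adjusted p up to 0.16). Like Nfe2l2, Srxn1 lies on chromosome 2.

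Hmox1 (chr8:75820241-75827217) encodes heme oxygenase, which degrades heme and is known to respond to both HIF and NRF2. It stood at 22.3 and 25.1 CPM in WT normoxia, 193 and 109 in WT hypoxia, 22.3 and 24.9 in FIH-KO normoxia, and 179.6 and 68.5 in FIH-KO hypoxia. All hypoxia libraries were above all normoxia libraries, and the genotypes overlapped. Hypoxia raised Hmox1 by 2.67 ± 0.37 (adjusted p = 0.0003) in WT and 2.40 ± 0.37 (adjusted p = 0.0012) in FIH-KO cells. The Hmox1 log2 fold change in FIH-KO cells kept its call and was 1.56 without FIH-KO hypoxia replicate 1 (adjusted p = 0.0018). The genotype differences were -0.01 ± 0.37 (adjusted p = 0.99) in normoxia and -0.29 ± 0.34 (adjusted p = 0.57) in hypoxia. The Hmox1 value in hypoxia was -1.10 and called without FIH-KO hypoxia replicate 1 (adjusted p = 0.0072), and 0.25 without replicate 2 of that group (adjusted p = 0.49).

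**Figure D3:**
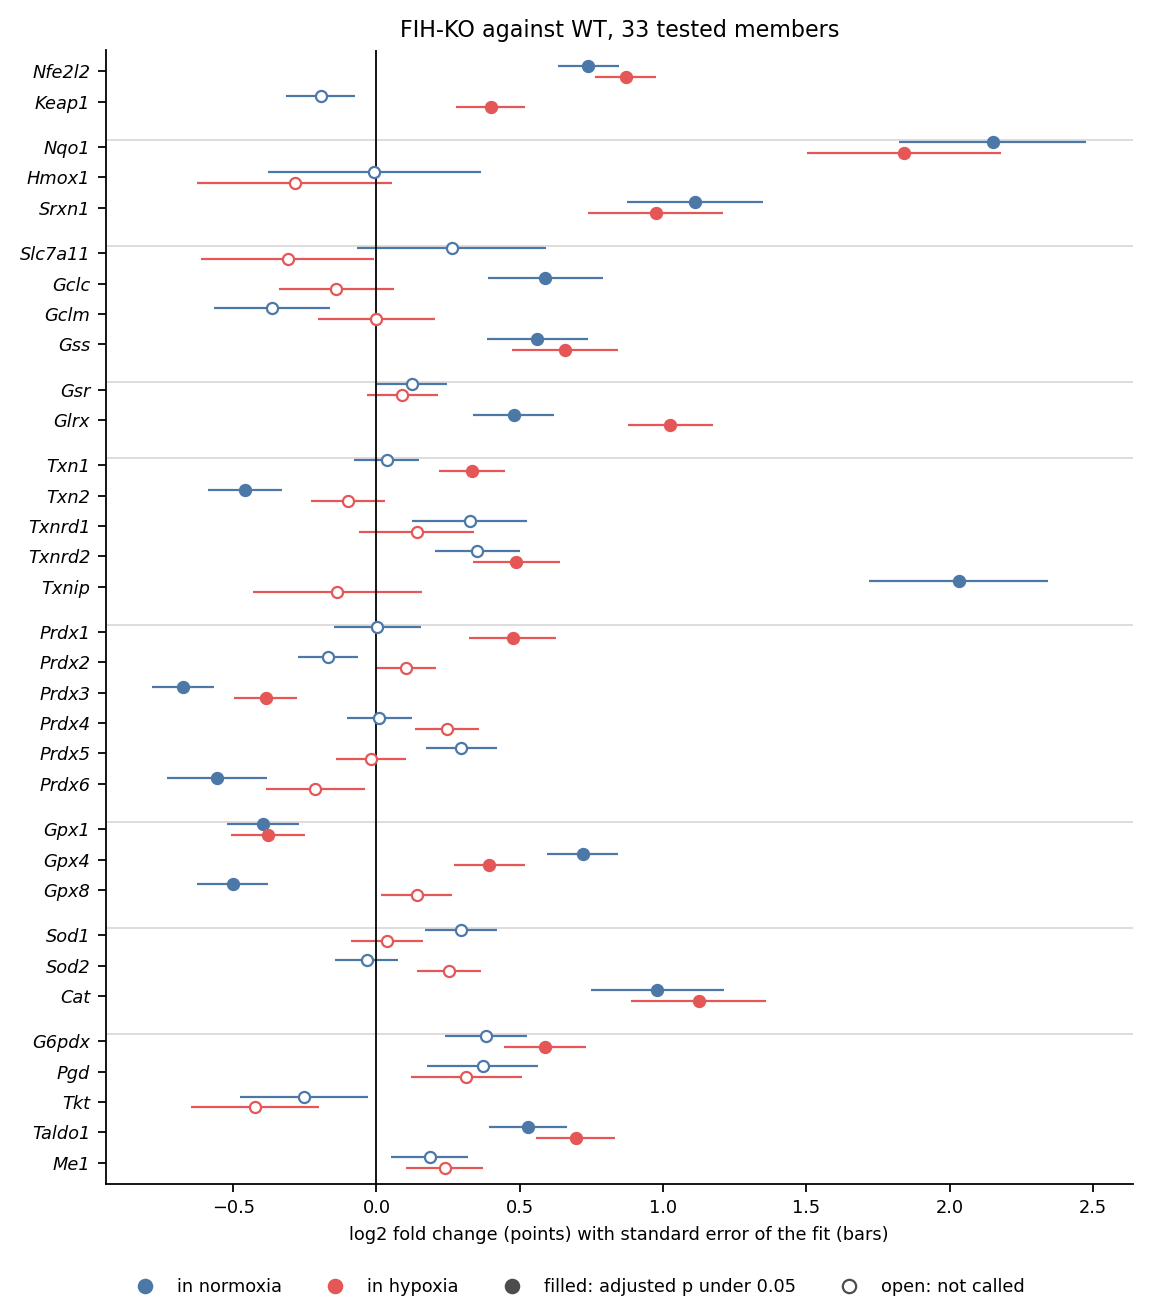
Log2 fold change of FIH-KO over WT cells (x axis) with its standard error for the 33 tested members (y axis, grouped by role), in normoxia (blue) and hypoxia (red). Filled points passed the adjusted p of 0.05. Nqo1 is the farthest to the right in both (2.15 and 1.84), and Txnip is at 2.03 in normoxia and -0.14 in hypoxia.

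Cystine uptake and glutathione synthesis were represented by 4 genes, and their patterns differed. Slc7a11 (chr3:49846975-50398070), the cystine transporter xCT that feeds glutathione synthesis, stood at 17.5 and 24.3 CPM in WT normoxia, 154 and 128 in WT hypoxia, 28.4 and 21.9 in FIH-KO normoxia, and 161 and 66.0 in FIH-KO hypoxia. All hypoxia libraries lay above all normoxia libraries, and the genotypes overlapped. Hypoxia raised Slc7a11 by 2.75 ± 0.33 (adjusted p = 0.00012) in WT and 2.18 ± 0.32 (adjusted p = 0.00096) in FIH-KO cells, against genotype differences of 0.26 ± 0.33 (adjusted p = 0.59) and -0.31 ± 0.30 (adjusted p = 0.48) in normoxia and hypoxia. The Slc7a11 genotype value in hypoxia was -1.05 and called without FIH-KO hypoxia replicate 1 (adjusted p = 0.0025), and 0.20 without replicate 2 of that group (adjusted p = 0.49). The Slc7a11 log2 fold change for hypoxia in FIH-KO cells kept its call and was 1.42 without FIH-KO hypoxia replicate 1 (adjusted p = 0.00069). Slc7a11, Gclm and Txnip lie on chromosome 3, where the median log2 fold change of FIH-KO over WT cells was -0.36 in normoxia and -0.41 in hypoxia over 683 tested genes, and the part of this in their values was not tested.

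Gss, glutathione synthetase, was higher in FIH-KO cells and lower in hypoxia. It stood at 17.8 and 20.8 CPM in WT normoxia, 14.0 and 10.0 in WT hypoxia, 29.7 and 27.3 in FIH-KO normoxia, and 20.2 and 17.8 in FIH-KO hypoxia. The genotypes did not overlap at either oxygen level, nor did the oxygen groups in either genotype. Gss also lies on chromosome 2, whose part in its change was not tested. The log2 fold changes of Gss were 0.56 ± 0.18 (adjusted p = 0.032) and 0.66 ± 0.18 (adjusted p = 0.019) for FIH-KO in normoxia and hypoxia, and -0.68 ± 0.18 (adjusted p = 0.015) and -0.58 ± 0.18 (adjusted p = 0.041) for hypoxia in WT and FIH-KO cells. The Gss call for FIH-KO in normoxia ended without any 1 of the 4 libraries compared (0.42 to 0.65, adjusted p up to 0.27). The Gss call for FIH-KO in hypoxia ended without FIH-KO hypoxia replicate 1 or WT hypoxia replicate 2 (0.45 to 0.60, adjusted p up to 0.15), and with only the compared libraries in the fit (0.69, adjusted p = 0.052). The Gss call for hypoxia in WT cells ended without WT hypoxia replicate 2 or WT normoxia replicate 2 (-0.60 to -0.47, adjusted p up to 0.12). The Gss call for hypoxia in FIH-KO cells ended without any 1 library except those of WT hypoxia (-0.65 to -0.50, adjusted p up to 0.19), and with a filter of at least 10 counts in every library or with only the compared libraries in the fit (-0.55, adjusted p up to 0.07). Gclc, the catalytic subunit of the rate-limiting glutamate-cysteine ligase, was higher in FIH-KO cells in normoxia by 0.59 ± 0.20 (adjusted p = 0.046). The Gclc call ended without FIH-KO normoxia replicate 1 or either replicate of WT normoxia (0.36 to 0.64, adjusted p up to 0.34), and with TMM factors from genes outside chromosomes 3, 19 and X or with a filter of at least 10 counts in every library (0.54 to 0.58, adjusted p up to 0.06). Its modifier subunit Gclm was called in no comparison (log2 fold changes -0.36 to 0.03).

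Glutathione reduction was represented by Gsr, glutathione reductase, which was called in no comparison, and by Glrx, the glutaredoxin that removes glutathione from protein thiols. Glrx stood at 20.9 and 21.0 CPM in WT normoxia, 11.2 and 11.6 in WT hypoxia, 30.1 and 28.4 in FIH-KO normoxia, and 21.6 and 24.7 in FIH-KO hypoxia. The lowest 2 libraries were those of WT hypoxia and the highest those of FIH-KO normoxia. FIH-KO cells had more Glrx by 0.48 ± 0.14 (adjusted p = 0.025) in normoxia and 1.03 ± 0.15 (adjusted p = 0.00049) in hypoxia. Hypoxia lowered it in WT cells by a log2 fold change of -0.88 ± 0.15 (adjusted p = 0.001), and the value in FIH-KO cells was -0.34 ± 0.14 (adjusted p = 0.13). The Glrx call for FIH-KO in normoxia ended without any 1 of the 4 libraries compared (0.42 to 0.49, adjusted p up to 0.17). The other 2 Glrx calls held without any 1 library.

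In the thioredoxin system, Txn1, the cytosolic thioredoxin, fell in hypoxia in both genotypes. It stood at 569.6 and 561 CPM in WT normoxia, 321 and 319 in WT hypoxia, 612 and 547 in FIH-KO normoxia, and 429 and 376 in FIH-KO hypoxia. The hypoxia libraries were lowest in WT cells, and the genotypes overlapped in normoxia. The log2 fold change of Txn1 in hypoxia was -0.82 ± 0.11 (adjusted p = 0.00031) in WT and -0.52 ± 0.11 (adjusted p = 0.009) in FIH-KO cells, and FIH-KO cells had more in hypoxia (0.33 ± 0.11, adjusted p = 0.046) but no detectable difference in normoxia (0.04 ± 0.11, adjusted p = 0.84). The Txn1 call for FIH-KO in hypoxia ended without any 1 library except those of FIH-KO normoxia and FIH-KO hypoxia replicate 2 (0.28 to 0.37, adjusted p up to 0.16), and with only the compared libraries in the fit (0.36, adjusted p = 0.073). The Txn1 call for hypoxia in FIH-KO cells ended without FIH-KO normoxia replicate 1 (-0.42, adjusted p = 0.073), and with only the compared libraries in the fit (-0.50, adjusted p = 0.067).

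Txn2 and Txnrd2 encode the mitochondrial thioredoxin and its reductase. Txn2 stood at 179 and 185 CPM in WT normoxia, 147 and 128 in WT hypoxia, 120.0 and 145 in FIH-KO normoxia, and 139 and 118 in FIH-KO hypoxia. WT normoxia was the highest group and did not overlap with FIH-KO normoxia or WT hypoxia. Txn2 was lower in FIH-KO cells in normoxia (-0.46 ± 0.13, adjusted p = 0.019) and lower in hypoxia in WT cells (-0.40 ± 0.13, adjusted p = 0.031). The Txn2 call in normoxia ended without FIH-KO normoxia replicate 1 or either replicate of WT normoxia (-0.52 to -0.35, adjusted p up to 0.14). The Txn2 call for hypoxia in WT cells ended without WT hypoxia replicate 2 or either replicate of WT normoxia (-0.47 to -0.31, adjusted p up to 0.2). Txnrd2 stood at 35.5 and 41.3 CPM in WT normoxia, 24.0 and 22.8 in WT hypoxia, 46.9 and 51.2 in FIH-KO normoxia, and 28.7 and 37.0 in FIH-KO hypoxia. It was lower in hypoxia in both genotypes, and the FIH-KO libraries were the higher ones at each oxygen level. Txnrd2 lies on chromosome 16, where the median log2 fold change of FIH-KO over WT cells was 0.23 in normoxia and 0.18 in hypoxia. The part of this in the Txnrd2 values was not tested. The Txnrd2 log2 fold changes were -0.72 ± 0.15 (adjusted p = 0.004) and -0.58 ± 0.15 (adjusted p = 0.02) for hypoxia in WT and FIH-KO cells, and 0.49 ± 0.15 (adjusted p = 0.032) for FIH-KO in hypoxia. The Txnrd2 call for FIH-KO in hypoxia ended without FIH-KO hypoxia replicate 2 or either replicate of WT hypoxia (0.30 to 0.56, adjusted p up to 0.2), and with only the compared libraries in the fit (0.52, adjusted p = 0.066). The Txnrd2 call for hypoxia in FIH-KO cells ended without FIH-KO hypoxia replicate 1 or either replicate of FIH-KO normoxia (-0.62 to -0.38, adjusted p up to 0.15), and with only the compared libraries in the fit (-0.55, adjusted p = 0.069). The cytosolic reductase Txnrd1 was called in no comparison.

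Txnip (chr3:96465267-96469201), which binds and inhibits thioredoxin and limits glucose uptake, was low in a single group. It stood at 32.3 and 36.02 CPM in WT normoxia, 176 and 97.5 in WT hypoxia, 189 and 90.8 in FIH-KO normoxia, and 135 and 114 in FIH-KO hypoxia. The WT normoxia libraries were low and the other 6 were at least 90.8 CPM. Txnip was higher in FIH-KO than in WT cells by 2.03 ± 0.31 (adjusted p = 0.00065) in normoxia, and hypoxia raised it by 2.002 ± 0.31 (adjusted p = 0.00064) in WT cells. The values for FIH-KO in hypoxia and for hypoxia in FIH-KO cells were -0.14 ± 0.30 (adjusted p = 0.77) and -0.17 ± 0.29 (adjusted p = 0.76). Both calls held without any 1 library, but without FIH-KO normoxia replicate 1 the Txnip value for FIH-KO in normoxia was 1.39 (adjusted p = 0.0061). The libraries within FIH-KO normoxia differed 2.08-fold and those within WT hypoxia 1.81-fold. The median of chromosome 3 was below 0 in both genotype comparisons.

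Of the 6 peroxiredoxins, thiol peroxidases that remove hydrogen peroxide, Prdx2, Prdx3 and Prdx6 fell in hypoxia in WT cells and Prdx5 rose. Prdx3, the mitochondrial member, stood at 142 and 137 CPM in WT normoxia, 83.2 and 90.0 in WT hypoxia, 83.0 and 92.0 in FIH-KO normoxia, and 68.1 and 64.4 in FIH-KO hypoxia. WT normoxia was the highest group and FIH-KO hypoxia the lowest, with no overlap in any of the 4 comparisons. Prdx3 log2 fold changes were -0.67 ± 0.11 (adjusted p = 0.00083) and -0.39 ± 0.11 (adjusted p = 0.02) for FIH-KO in normoxia and hypoxia, and -0.69 ± 0.11 (adjusted p = 0.00064) and -0.40 ± 0.11 (adjusted p = 0.026) for hypoxia in WT and FIH-KO cells. The Prdx3 call for FIH-KO in hypoxia ended without any 1 library except those of FIH-KO normoxia and FIH-KO hypoxia replicate 1 (-0.41 to -0.33, adjusted p up to 0.13), and with no filter beyond 1 read or with only the compared libraries in the fit (-0.36 to -0.35, adjusted p up to 0.068). The Prdx3 call for hypoxia in FIH-KO cells ended without any 1 library except those of WT hypoxia (-0.46 to -0.30, adjusted p up to 0.16), and with only the compared libraries in the fit (-0.37, adjusted p = 0.12). Prdx3 and Prdx5 lie on chromosome 19, where the median log2 fold change of FIH-KO over WT cells was -0.38 in normoxia and -0.45 in hypoxia over 476 tested genes, and the part of this in their values was not tested.

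Prdx5, found in mitochondria, peroxisomes and cytosol, stood at 80.8 and 83.4 CPM in WT normoxia, 149 and 132 in WT hypoxia, 104 and 97.6 in FIH-KO normoxia, and 154 and 124 in FIH-KO hypoxia. Hypoxia libraries were above normoxia ones in both genotypes, by 0.78 ± 0.12 (adjusted p = 0.00073) in WT and 0.46 ± 0.12 (adjusted p = 0.024) in FIH-KO cells, and no genotype difference was called. The Prdx5 call in FIH-KO cells ended without FIH-KO hypoxia replicate 1 or either replicate of FIH-KO normoxia (0.33 to 0.53, adjusted p up to 0.12), and with only the compared libraries in the fit (0.49, adjusted p = 0.063). Cytosolic Prdx2 stood at 239 and 243 CPM in WT normoxia, 152 and 149.98 in WT hypoxia, 218 and 211 in FIH-KO normoxia, and 152 and 173 in FIH-KO hypoxia. Its hypoxia libraries were below its normoxia libraries, with log2 fold changes of -0.67 ± 0.11 (adjusted p = 0.00063) in WT and -0.40 ± 0.10 (adjusted p = 0.022) in FIH-KO cells. The Prdx2 call in FIH-KO cells ended without any 1 library except those of WT hypoxia and FIH-KO hypoxia replicate 2 (-0.40 to -0.29, adjusted p up to 0.14), and with only the compared libraries in the fit (-0.37, adjusted p = 0.12).

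Prdx6, which also reduces oxidized phospholipids, stood at 391 and 415 CPM in WT normoxia, 241 and 241 in WT hypoxia, 257 and 292 in FIH-KO normoxia, and 256 and 160.1 in FIH-KO hypoxia. WT normoxia was the highest group, and the libraries of FIH-KO hypoxia lay on either side of those of WT hypoxia. Prdx6 was lower in FIH-KO cells in normoxia (-0.56 ± 0.17, adjusted p = 0.031) and lower in hypoxia in WT cells (-0.74 ± 0.17, adjusted p = 0.0069). The Prdx6 call in normoxia ended without FIH-KO normoxia replicate 1, WT hypoxia replicate 2 or either replicate of WT normoxia (-0.63 to -0.49, adjusted p up to 0.17). Prdx1, the most abundant peroxiredoxin here per length of annotated exon in WT normoxia, was higher in FIH-KO cells in hypoxia by 0.48 ± 0.15 (adjusted p = 0.034). The Prdx1 call ended without FIH-KO hypoxia replicate 1 or either replicate of WT hypoxia (0.26 to 0.54, adjusted p up to 0.17), and with only the compared libraries in the fit (0.50, adjusted p = 0.058). Prdx4, the peroxiredoxin of the endoplasmic reticulum, was called in no comparison.

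**Figure D4:**
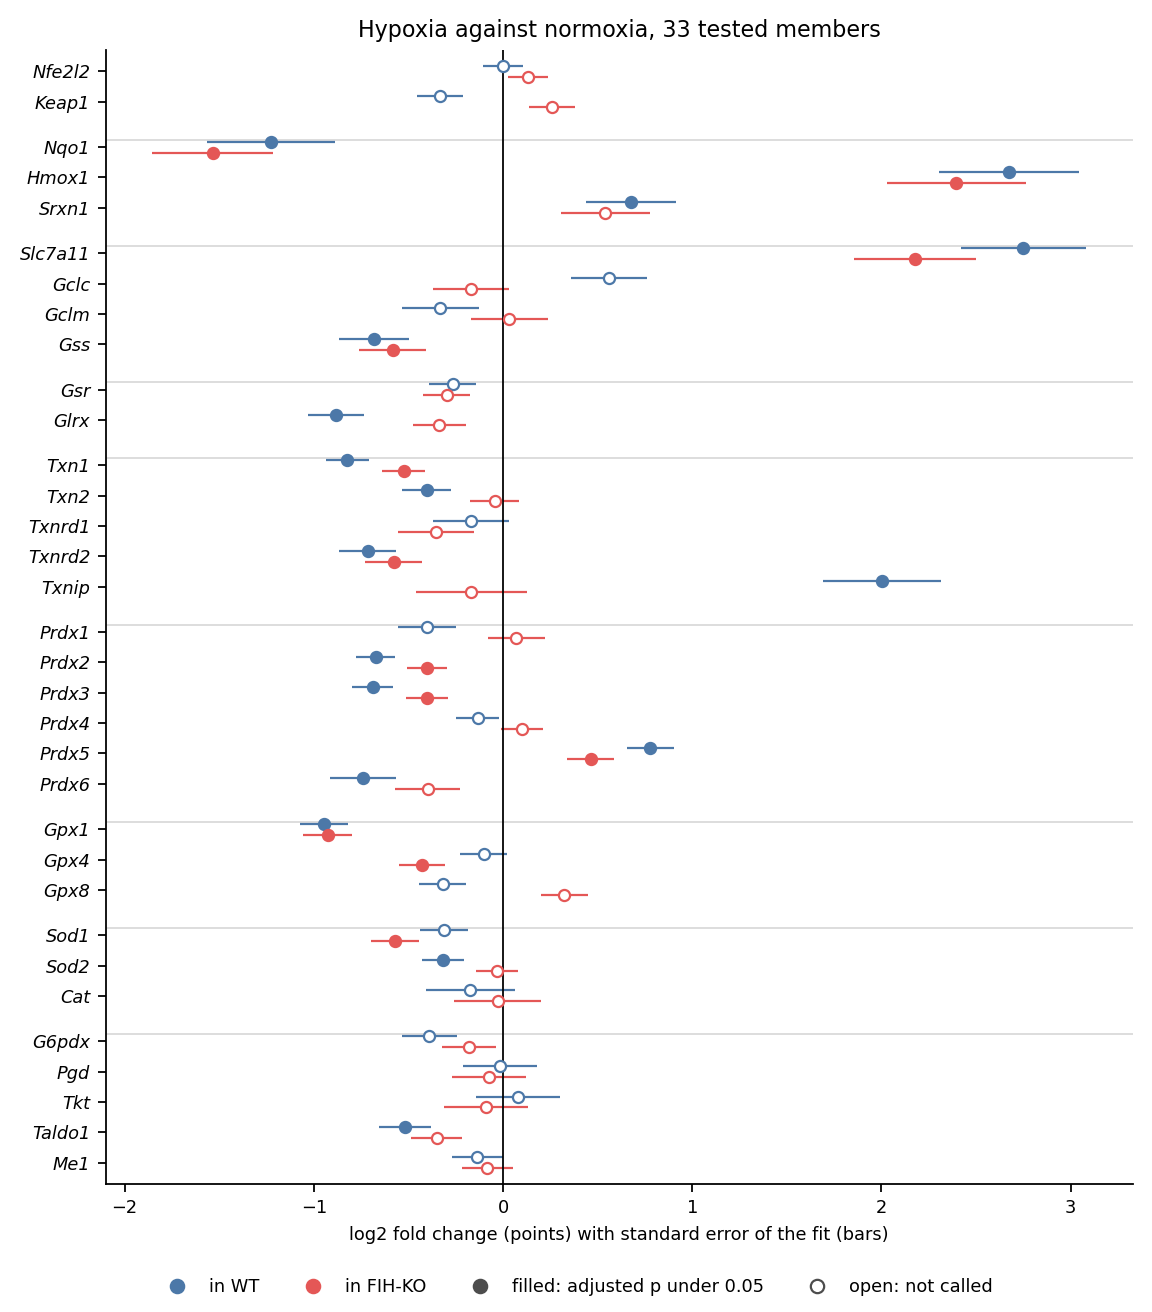
Log2 fold change of hypoxia over normoxia (x axis) with its standard error for the 33 tested members (y axis, grouped by role), in WT (blue) and FIH-KO cells (red). Filled points passed the adjusted p of 0.05. Slc7a11 and Hmox1 are far to the right in both genotypes (2.18 to 2.75), and Nqo1 is the farthest to the left (-1.23 and -1.53).

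Among the glutathione peroxidases, Gpx4 was called higher in FIH-KO cells, Gpx1 lower, and Gpx8 lower in normoxia alone. On chromosome 10, which holds Gpx4, the median log2 fold change of FIH-KO over WT cells was 0.19 in normoxia and 0.14 in hypoxia. It was -0.17 and -0.16 on chromosome 9 (Gpx1), and -0.18 and -0.16 on chromosome 13 (Gpx8). The part of this in their values was not tested. Gpx4 (chr10:79883000-79892273), the enzyme that reduces lipid peroxides and guards against ferroptosis, stood at 146 and 140.2 CPM in WT normoxia, 145 and 121 in WT hypoxia, 255 and 215 in FIH-KO normoxia, and 181 and 169 in FIH-KO hypoxia. FIH-KO libraries were above WT ones at each oxygen level. Gpx4 was higher in FIH-KO cells by 0.72 ± 0.12 (adjusted p = 0.0013) in normoxia and 0.39 ± 0.12 (adjusted p = 0.033) in hypoxia, and fell in hypoxia in FIH-KO cells (-0.43 ± 0.12, adjusted p = 0.034). The Gpx4 call for FIH-KO in hypoxia ended without FIH-KO hypoxia replicate 1 or WT hypoxia replicate 2 (0.27 to 0.39, adjusted p up to 0.24). The Gpx4 call for hypoxia in FIH-KO cells ended without any 1 library except those of WT hypoxia and FIH-KO normoxia replicate 2 (-0.45 to -0.28, adjusted p up to 0.25), and with only the compared libraries in the fit (-0.40, adjusted p = 0.11). Gpx1, the main cytosolic glutathione peroxidase, stood at 131 and 113 CPM in WT normoxia, 66.9 and 59.4 in WT hypoxia, 84.3 and 100.4 in FIH-KO normoxia, and 48.9 and 48.3 in FIH-KO hypoxia. It was lower in FIH-KO libraries at each oxygen level and lower again in hypoxia. The Gpx1 log2 fold changes were -0.40 ± 0.13 (adjusted p = 0.033) and -0.38 ± 0.13 (adjusted p = 0.045) for FIH-KO in normoxia and hypoxia, and -0.94 ± 0.13 (adjusted p = 0.00024) and -0.93 ± 0.13 (adjusted p = 0.00063) for hypoxia in WT and FIH-KO cells. The Gpx1 call for FIH-KO in normoxia ended without FIH-KO normoxia replicate 1 or either replicate of WT normoxia (-0.52 to -0.30, adjusted p up to 0.24). The Gpx1 call for FIH-KO in hypoxia ended without any 1 of the 8 libraries (-0.46 to -0.26, adjusted p up to 0.32), and with DESeq2, with upper-quartile normalization, with no filter beyond 1 read, with a filter of at least 10 counts in every library or with only the compared libraries in the fit (-0.37 to -0.34, adjusted p up to 0.095). Gpx8, a peroxidase of the endoplasmic reticulum, was lower in FIH-KO cells in normoxia, at -0.50 ± 0.12 (adjusted p = 0.01). The Gpx8 call ended without FIH-KO normoxia replicate 1 or either replicate of WT normoxia (-0.56 to -0.47, adjusted p up to 0.076).

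Catalase, encoded by Cat (chr2:103284194-103316185), splits hydrogen peroxide in peroxisomes. It stood at 52.6 and 62.0 CPM in WT normoxia, 49.8 and 51.9 in WT hypoxia, 127 and 99.4 in FIH-KO normoxia, and 145 and 76.1 in FIH-KO hypoxia. All FIH-KO libraries were above all WT libraries, and FIH-KO hypoxia had the widest gap between replicates. Cat was higher by 0.98 ± 0.23 (adjusted p = 0.0083) in normoxia and 1.12 ± 0.23 (adjusted p = 0.0041) in hypoxia, and the value for hypoxia was -0.17 ± 0.24 (adjusted p = 0.61) in WT and -0.03 ± 0.23 (adjusted p = 0.95) in FIH-KO cells. The Cat call in normoxia ended without FIH-KO normoxia replicate 1 or WT normoxia replicate 1 (0.77 to 0.84, adjusted p up to 0.093). The Cat log2 fold change in hypoxia kept its call and was 0.62 without FIH-KO hypoxia replicate 1 (adjusted p = 0.013). Cat is also on chromosome 2. The superoxide dismutases, which turn superoxide into hydrogen peroxide, were called only for hypoxia: cytosolic Sod1 fell in FIH-KO cells, at -0.57 ± 0.13 (adjusted p = 0.0099), and mitochondrial Sod2 in WT cells, at -0.32 ± 0.11 (adjusted p = 0.044). The Sod1 call ended without FIH-KO normoxia replicate 1 (-0.44, adjusted p = 0.091). The Sod2 call ended without any 1 of the 4 libraries compared (-0.36 to -0.32, adjusted p up to 0.15), and with no filter beyond 1 read or with the replicate number as a block (-0.33 to -0.32, adjusted p up to 0.083).

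Among the enzymes that make NADPH or run the pentose phosphate pathway, Taldo1, transaldolase, was higher in FIH-KO cells. It stood at 137 and 135 CPM in WT normoxia, 94.4 and 95.8 in WT hypoxia, 207 and 186 in FIH-KO normoxia, and 178 and 130.4 in FIH-KO hypoxia. FIH-KO libraries were above WT ones at each oxygen level, by 0.53 ± 0.14 (adjusted p = 0.013) in normoxia and 0.70 ± 0.14 (adjusted p = 0.003) in hypoxia, and hypoxia lowered Taldo1 in WT cells, at -0.52 ± 0.14 (adjusted p = 0.013). The Taldo1 call for FIH-KO in normoxia ended without FIH-KO normoxia replicate 1 or either replicate of WT normoxia (0.43 to 0.51, adjusted p up to 0.11). The Taldo1 call for hypoxia ended without any 1 of the 4 libraries compared (-0.57 to -0.53, adjusted p up to 0.065). G6pdx, which opens the pathway and yields NADPH, was higher in FIH-KO cells in hypoxia by 0.59 ± 0.14 (adjusted p = 0.0095). The G6pdx call ended without WT hypoxia replicate 2 (0.54, adjusted p = 0.076). Its value was 0.38 without FIH-KO hypoxia replicate 1, still called (adjusted p = 0.039). Pgd, Tkt and Me1 were called in no comparison. The 7 tested members without a call (Gclm, Gsr, Txnrd1, Prdx4, Pgd, Tkt and Me1) had log2 fold changes between -0.42 and 0.37 and adjusted p values of at least 0.12, which does not show that they were the same in the groups. Of these 7, 5 (Gclm, Gsr, Txnrd1, Pgd and Tkt) passed in at least 1 comparison under at least 1 alternative, with adjusted p values from 0.0011 to 0.047.

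Whether the effect of FIH-KO depended on oxygen was tested with an interaction term. No member was called by edgeR's quasi-likelihood test (0 of 33, with 0% of all genes called), and DESeq2 called 0 members and 37 genes. At an unadjusted p below 0.05 there were 6 members and 925 genes. In size the 6 ran from Txnip at -2.17 ± 0.43 (adjusted p = 0.19) through Gclc (-0.73 ± 0.28), Gpx8 (0.64 ± 0.18), Keap1 (0.59 ± 0.17) and Glrx (0.55 ± 0.21) to Prdx1 (0.47 ± 0.21), with adjusted p values up to 0.75. Txnip passed in edgeR with no filter beyond 1 read (-2.15 ± 0.19, adjusted p = 1.5e-24) and with the replicate number as a block (-2.02 ± 0.31, adjusted p = 0.049). Its value was close to that of the main fit in both, and the standard error was smaller. With no filter 143 genes were called, against 0 in the main fit. For Nqo1 the interaction was -0.31 ± 0.46 (adjusted p = 0.93) and for Nfe2l2 0.13 ± 0.15 (adjusted p = 0.89). A call at a single oxygen level or in a single genotype is therefore not a tested difference between them.

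Levels between genes are compared per length, as mean CPM per kilobase of annotated exon in WT normoxia. The length is the union of the exons of all annotated transcripts of a gene, from 1445 bases (Gpx1) to 15522 (Slc7a11). It can exceed the length of the transcripts expressed, so the order depends on the annotation. Txn1 was the highest member at 257 ± 2.80 (SD, n = 2), followed by Prdx1 at 123 ± 7.29. Prdx3 (85.2 ± 2.48), Gpx1 (84.2 ± 8.83) and Gpx4 (83.0 ± 2.30) followed and did not differ beyond their spread. Nfe2l2 was at 45.5 ± 1.59 and Keap1 at 11.9 ± 0.824. Nqo1 (18.1 ± 5.52) and Hmox1 (13.5 ± 1.11) were in the lower part of the tested members, and Gss (2.79 ± 0.306), Glrx (2.23 ± 0.00594) and Slc7a11 (1.35 ± 0.313) were at its end. The remaining 3 members were too low to test: Gpx3, the secreted peroxidase, with 6 reads over all 8 libraries, Gpx7 with 1 and Sod3, the extracellular dismutase, with 50. In GENCODE the exons of 22 of the 36 members overlap a gene on the opposite strand, among them Nfe2l2, Keap1, Srxn1, Gss and Txnip, those of 3 members overlap a gene on the same strand, and Prdx1, Prdx2, Prdx6 and Gpx4 have pseudogenes named after them. The strand setting of the counting and the treatment of multiply mapped reads are not given in the sources used here, so reads of such partners may be split or shared.

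Of 69 other redox genes, listed by role and likewise with earlier results of these data known, 60 were tested. Among 17 tested further NRF2 targets, 8 were higher and 0 lower in FIH-KO cells in normoxia, and 8 higher and 1 lower in hypoxia, against the backgrounds of 15.2% and 14.1%. Their median log2 fold changes were 0.33 and 0.44. Over all 60 genes, against the same backgrounds and 13% and 13.9% for lower genes, 19 were higher and 3 lower in normoxia, and 15 higher and 2 lower in hypoxia. In hypoxia against normoxia, 13 rose and 16 fell in WT cells (against 16.9% and 15.5% of all genes) and 10 rose and 13 fell in FIH-KO cells (against 8.84% and 8%). Of the 10 tested NRF2 partners and repressors, 6 rose in WT hypoxia (Maff, Mafg, Mafk, Bach1, Nfe2l1 and Sqstm1, which encodes the KEAP1-binding protein p62) and 1 fell (Rbx1), and in FIH-KO cells 4 rose and 0 fell, against the same shares of all genes.

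The other redox genes with the largest changes in both oxygen conditions are named here with their log2 fold changes in normoxia and hypoxia. They needed an average of at least 50 counts over all 8 libraries, including the FIH-KO ones in which they were high. Ggt1 reached 50 only through its FIH-KO libraries. Ggt1, which breaks down extracellular glutathione, had 5 and 4 reads in WT normoxia, 9 and 8 in WT hypoxia, 189 and 77 in FIH-KO normoxia and 74 and 34 in FIH-KO hypoxia, and changed by 4.77 ± 0.62 and 2.69 ± 0.59. Ephx1, an epoxide hydrolase, changed by 2.82 ± 0.16 and 2.68 ± 0.17, and Cbr3, a carbonyl reductase, by 2.65 ± 0.45 and 2.79 ± 0.48. Xdh, xanthine dehydrogenase, a source of superoxide and hydrogen peroxide, changed by 1.91 ± 0.16 and 2.44 ± 0.16, and Blvrb, biliverdin reductase B, by 2.08 ± 0.32 and 1.82 ± 0.33. Sesn1, a sestrin, changed by 1.21 ± 0.24 and 1.44 ± 0.25, Idh1, which yields cytosolic NADPH, by 1.13 ± 0.25 and 1.30 ± 0.25, and Msra, a methionine sulfoxide reductase, by 1.17 ± 0.26 and 0.94 ± 0.25. All of these were called, with adjusted p values up to 0.016. Without FIH-KO normoxia replicate 1 the normoxia values of Idh1 (0.54, adjusted p = 0.077) and Sesn1 (0.83, adjusted p = 0.053) were not called, nor was Idh1 without WT normoxia replicate 1 (1.06, adjusted p = 0.058). Msra lost its call without WT normoxia replicate 2 in normoxia (0.91, adjusted p = 0.075) and without WT hypoxia replicate 2 in hypoxia (0.62, adjusted p = 0.12), and was 1.44 in hypoxia without WT hypoxia replicate 1. Without FIH-KO hypoxia replicate 1 the hypoxia values of Cbr3 and Blvrb were 1.73 and 1.06 and still called.

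**Figure D5:**
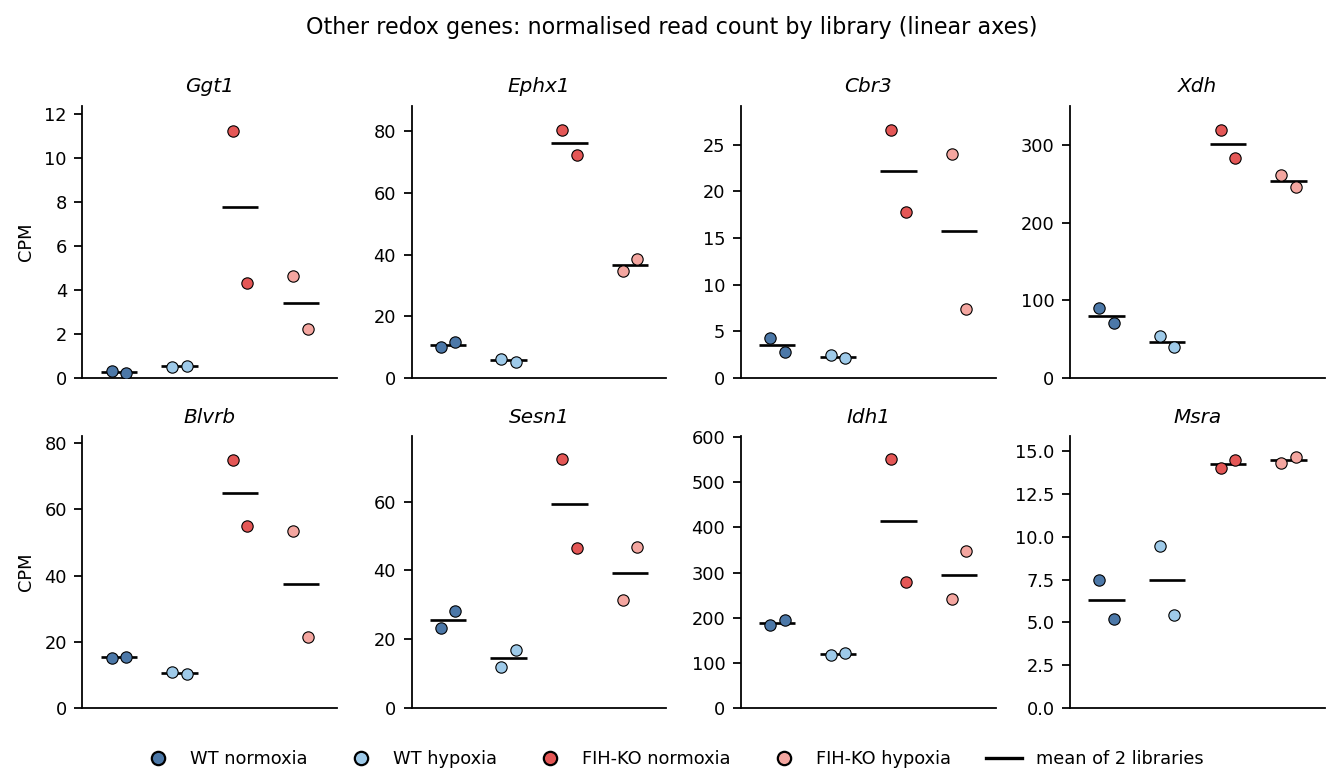
CPM (y axis, linear from 0) of the 8 other redox genes with the largest FIH-KO changes in both oxygen conditions, one dot per library colored by group, with the mean of each pair as a line. In all 8 genes the FIH-KO libraries lie above the WT libraries of the same oxygen level, and Ggt1 is near 0 in WT cells (4 to 9 reads).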

How the data were processed

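RNA-Seq libraries of WT and FIH-KO LLC cells (2 per group, 4 groups, 8 in all) were analysed from the deposited table of raw counts per gene (53700 genes), which the authors made with STAR and HTSeq on the mouse genome GRCm39 from stranded, paired-end mRNA libraries. The submitters' processing notes name STAR, DESeq2 and the builds GRCm38 and GRCm39. The values are counts without normalization. The annotation release, strand setting and handling of multiply mapped reads are not given in the sources used here.

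Counts were fitted with edgeR 4.0.16 under R 4.3.3 (quasi-likelihood test on the means of the 4 groups, all 8 libraries, TMM, low genes removed by filterByExpr, Benjamini-Hochberg over the 13933 genes tested, threshold 0.05). TMM factors were 0.983 to 1.02, and the common biological coefficient of variation was 11.7%. CPM are counts scaled to a TMM-adjusted library of 1000000. Levels per length use the union of all annotated exons of a gene from GENCODE for GRCm39. Groups came from the titles and descriptions of the samples, which name 2 libraries of FIH-KO hypoxia, whereas the design text of the series lists WT hypoxia in 2 places and leaves that group out. The members and the other gene lists were chosen with earlier results of these data known. Library values are given for members called in at least 2 comparisons and for Nfe2l2, Keap1, Nqo1 and Hmox1, fold changes for other called members and ranges for the rest. Of the other redox genes, 8 are named: those called in the same direction in both genotype comparisons with at least 50 counts on average, by the smaller absolute log2 fold change. Alternatives were DESeq2 1.42.0, other normalizations and filters, a fit of the compared libraries alone, a block for the replicate number, and each library left out in turn. The fit was tested on simulated data for FIH-KO against WT in normoxia, where 135 of 200 genes changed by 1 on the log2 scale were recovered among 13933, 0 of them in the wrong direction, and 9 unchanged genes were called.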

Additional observations from a re-analysis of the deposited data

Results flagged for a closer look

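In 3 members the groups moved in opposite directions with no overlap between libraries, and the test of the difference itself (the interaction of FIH-KO and hypoxia, edgeR's quasi-likelihood test, log2 scale) did not pass for any of them. With 2 libraries per group a lack of overlap was common. It held for 26 and 20 of the 33 tested members between genotypes in normoxia and hypoxia. Between oxygen levels it held for 28 in WT and 20 in FIH-KO cells. The share of all tested genes without overlap was not counted, nor was how often all genes show such a reversal. Keap1 was lower in FIH-KO than in WT libraries in normoxia and higher in hypoxia, and it was lower in hypoxia in WT cells and higher in hypoxia in FIH-KO cells, with an interaction of 0.59 ± 0.17 (adjusted p = 0.50). Gpx8 showed the same 2 reversals, with an interaction of 0.64 ± 0.18 (adjusted p = 0.46). Prdx2 was lower in FIH-KO than in WT libraries in normoxia and higher in hypoxia (152 and 173 CPM against 152 and 149.98, with the nearest libraries almost equal), with an interaction of 0.27 ± 0.15 (adjusted p = 0.80).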

How the results depend on the processing

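With 2 libraries per group, the calls depended most on which libraries entered the fit. Of the 59 member calls, 24 held without any 1 library and in every other alternative, 42 held in all 8 alternatives other than leaving out a library, and none changed direction. DESeq2 kept 57, RLE size factors 59, upper-quartile normalization 58, TMM factors from genes outside chromosomes 3, 19 and X 57, no filter beyond 1 read 56, a minimum of 10 counts per library 56, the compared libraries alone 45 and each left-out library 38 to 52. Deviations of same-numbered libraries correlated at -0.186 to 0.303 (6072 genes), above 0.1 for 1 of 6 pairs of groups, WT with FIH-KO hypoxia (0.303), and the labels tie the numbers to no shared source. The replicate number as a block kept 58 calls.

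Leaving out 1 library leaves a group with a single library, which is then assumed to vary like the other groups. This gave 4 to 14 members higher and 1 to 6 lower in FIH-KO cells in normoxia (10 and 5 in the fit of all libraries), and 5 to 13 higher and 0 to 5 lower in hypoxia (13 and 2). It gave 4 to 6 members higher and 7 to 19 lower in hypoxia in WT cells (5 and 12), and 2 to 4 higher and 1 to 9 lower in FIH-KO cells (3 and 9). With only the compared libraries there were 8 members higher and 0 lower in FIH-KO cells in hypoxia, and 19 lower in hypoxia in WT and 3 in FIH-KO cells. In FIH-KO cells in hypoxia 1 member was lower with DESeq2, upper-quartile normalization and at least 10 counts (Prdx3 in each), and 1 with no filter beyond 1 read, where neither Prdx3 nor Gpx1 passed and Tkt did (-0.39, adjusted p = 0.014, edgeR). The interaction, with 0 members and 0 genes, gave 2 members (Txnip and Gclc) and 143 genes with no filter, 1 member (Txnip) and 5 genes with the block, and 0 members with 37 genes by DESeq2 or 39 without FIH-KO hypoxia replicate 1. Under the alternatives, calls over all genes were counted for the interaction alone. The cause of the changes in the counts was not tested.

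Values that changed sign were not called in the fit of all libraries. Nfe2l2 for hypoxia in WT cells was -0.014 with DESeq2, -0.0051 with RLE, -0.020 with upper-quartile, -0.026 with TMM outside the 3 chromosomes, -0.012 with no filter and -0.077 to 0.017 without single libraries. Hmox1 for FIH-KO in normoxia was 0.011 with no filter and -0.12 to 0.056 without single libraries, and in hypoxia -1.10 to 0.25. Without single libraries Txnip was -0.50 to 0.39 for FIH-KO in hypoxia, with the positive value without WT hypoxia replicate 1, and -0.58 to 0.47 for hypoxia in FIH-KO cells, with the positive value without FIH-KO normoxia replicate 1. Cat for hypoxia in FIH-KO cells was -0.54 to 0.36, Slc7a11 for FIH-KO in hypoxia -1.05 to 0.20, Srxn1 for hypoxia in FIH-KO cells -0.016 to 0.95, the Nqo1 interaction -0.69 to 0.34, and Txn1 for FIH-KO in normoxia -0.067 to 0.088, and -0.015 with TMM outside the 3 chromosomes. Some values near the threshold passed with DESeq2. For hypoxia in WT cells these were G6pdx (-0.40, adjusted p = 0.033), Prdx1 (-0.42, adjusted p = 0.027) and Gclc (0.54, adjusted p = 0.027). In edgeR's test their adjusted p values were 0.055, 0.0605 and 0.0508. For FIH-KO in normoxia G6pdx had an adjusted p of 0.064 with edgeR (0.38) and 0.046 with DESeq2 (0.39). Keap1 for hypoxia in WT cells (adjusted p = 0.052) passed in 10 alternatives, with log2 fold changes from -0.50 to -0.33 and adjusted p values (edgeR) from 0.026 to 0.048, and without FIH-KO hypoxia replicate 1 Hmox1 and Slc7a11 passed as lower in FIH-KO cells in hypoxia (-1.10 and -1.05).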
